A study of Mus musculus with 234 samples.

Results

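The integrated stress response genes described here are 10 mouse genes: the transcription factors Atf4, Atf5 and Ddit3, the pseudokinase gene Trib3, the enzyme genes Asns and Chac1, the secreted factors Gdf15 and Fgf21, and the growth and redox regulators Sesn2 and Ddit4. They were chosen by name from the table of gene counts, which holds 55538 rows, 23664 of them with a count. The 10 names matched 11 rows, because Ddit3 is listed in 2 rows, and 9 of the 11 rows held a count. The second Ddit3 row and the Fgf21 row were at 0 in every cell.

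The counts came from single cardiomyocytes (CMs) of 5 mice, picked by hand after Langendorff dissociation of the heart and sequenced with the SMART-seq2 protocol. Control mice M26 and M73 (24 and 9 CMs) are labelled wild type (wt), with the strain label C57BL/6. The study describes its controls in general as siblings that were wild type or carried PGK-Cre or the unrecombined transgene alone, on a mixed background. Mice M25 and M116 have the strain label PGKcre:BAG3P209L_homo and mouse M72 the label PGKcre:BAG3P209L_het. In these mice the CAG promoter drives human BAG3 with the P209L mutation, fused to eGFP, from the Rosa26 locus once PGK-Cre, whose activity is not limited to CMs, has removed a stop cassette. The study describes the transgenic protein in these hearts as limited to CMs. The line goes back to 1 embryonic stem cell clone. The labels separate the cells of transgenic mice into bright and dim ones, by their eGFP fluorescence: 21 and 59 bright CMs and 18 and 50 dim CMs from mice M25 and M116, and 27 bright and 26 dim CMs from mouse M72. The age was 2 weeks for the control and homozygous mice, and is not given for the heterozygous mouse.

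In the integrated stress response, any of 4 kinases (Eif2ak1 to Eif2ak4) phosphorylates the translation factor eIF2, which slows general protein synthesis while the mRNA of Atf4 is translated more. ATF4 protein then switches on genes for amino acid supply, redox defence and, when the stress lasts, cell death. Because ATF4 is controlled largely through translation, its mRNA level need not follow its activity, whereas the mRNAs of its targets do report on it. In heart muscle the response is known for mitochondrial and protein folding stress, where GDF15 and FGF21 are released as hormones.

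Values are given in CPM (counts-per-million). They were taken from counts summed over the cells of 1 mouse and 1 brightness class, which makes 8 sums, and the mouse is the replicate. Total counts of single cells ran from 487 to 1392253 (median 711527) and those of the 8 sums from 4096609 in control mouse M73 to 40508124. The human transgene sequence (hBAG) checked the labels. It was at 0.408 and 0.488 CPM in control mice M26 and M73, at 294 and 233 CPM in bright CMs (mice M25 and M116, in this order throughout), and at 10.7 and 99.6 CPM in their dim CMs. In the heterozygous mouse it was at 105 CPM in the cells labelled bright and 251 CPM in the cells labelled dim, against the order of the labels. Control cells give the background: 7 of 33 had any hBAG count and the highest held 2. The 9 cardiomyocyte markers summed to between 77592 and 97863 CPM in each of the 8 sums. In 37 wells markers of fibroblasts or macrophages summed to more than 100 CPM. They are called mixed wells below, and sums are also given without them. Fibroblast markers (5 genes) summed to 2174 CPM in the bright CMs of mouse M25 and to between 22.7 and 449 CPM elsewhere, and macrophage markers (5 genes) to 46.8 and 45.3 CPM in the homozygous dim sums and to between 0.264 and 7.29 CPM elsewhere. The part of these cells and of the 2 library sets (mice M25 and M26 in one, mice M72, M73 and M116 in the other) in the results was not tested, beyond the values given beside them.

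ATF4 and its partners bind a composite element whose core can be written TGATGNAA, and this element was looked for on both strands of RefSeq promoter windows (build GRCm38.p6, 250 bases before to 50 after each gene start). All 10 genes matched a window. Of all 32851 windows, 3.97% held the element, and so did those of Asns, Chac1, Fgf21 and Trib3 among the 10 genes. The windows of 2 of them are shown around the element, which is in capitals and reads TTNCATCA because it lies on the other strand. In Chac1 and Fgf21 it stands upstream of the gene start in both RefSeq and GENCODE M21. In Asns and Trib3 it lies between the gene starts of these 2 annotations, which differ, and these windows are not shown.
Chac1, chr2:119351028-119351077, plus strand: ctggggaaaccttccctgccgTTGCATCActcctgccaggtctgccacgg
Fgf21, chr7:45615601-45615650, minus strand: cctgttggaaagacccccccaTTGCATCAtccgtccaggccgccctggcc
Counted from the RefSeq start, the element began at -193 in Chac1 and -139 in Fgf21. The version TGATGCAA, found in 0.895% of all windows, was present in Chac1 and Fgf21. A match describes the letters of these windows only.

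Atf4 (ENSMUSG00000042406, chr15:80255184-80257541, plus strand), the central transcription factor of the response, was the most abundant of the 10 mRNAs (gene positions here and below are those of GENCODE M21 on GRCm38, since the authors' annotation is not given in the sources used here). It had a count in 195 cells, 83.3% of all, and its level per kilobase, averaged over the 8 sums, was 36.4 CPM per kb. Ddit3 followed with 11 CPM per kb, Ddit4 with 2.54, Chac1 with 2.00, Asns with 1.68, Gdf15 with 0.905, Atf5 with 0.819, Trib3 with 0.408 and Sesn2 with 0.323 CPM per kb. Only Atf4 and Ddit3 were farther apart than the SD over the sums of either gene; all lower neighbours in this order did not differ beyond that spread. In control mice M26 and M73 Atf4 stood at 106 and 83.5 CPM. Bright CMs of mouse M25 and of mouse M116 had 85.4 and 118 CPM of Atf4, and the dim CMs of the same mice 54.0 and 79.6 CPM. Bright and control values of Atf4 thus overlapped, and both dim values lay below both control values.

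Against control CMs, the log2 fold change of Atf4 was -0.22 ± 0.35 (SE) in bright CMs (edgeR quasi-likelihood test, adjusted p = 0.968) and -0.80 ± 0.39 in dim CMs (edgeR, adjusted p = 0.907). Neither passed the threshold of 0.05. The direction in bright CMs turned with the scaling, to 0.10 when only the library size was used. Within each homozygous mouse the Atf4 level was higher in bright than in dim CMs, and on each of the plates GL9989-2 and GL9989-3 of mouse M116 as well, with 110 against 91 CPM on the former and 126 against 62.9 CPM on the latter. The log2 fold change of Atf4 from dim to bright CMs was 0.57 ± 0.28 (edgeR, adjusted p = 0.999) and ranged from 0.52 to 0.64 under the alternatives tried.

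**Figure D1:**
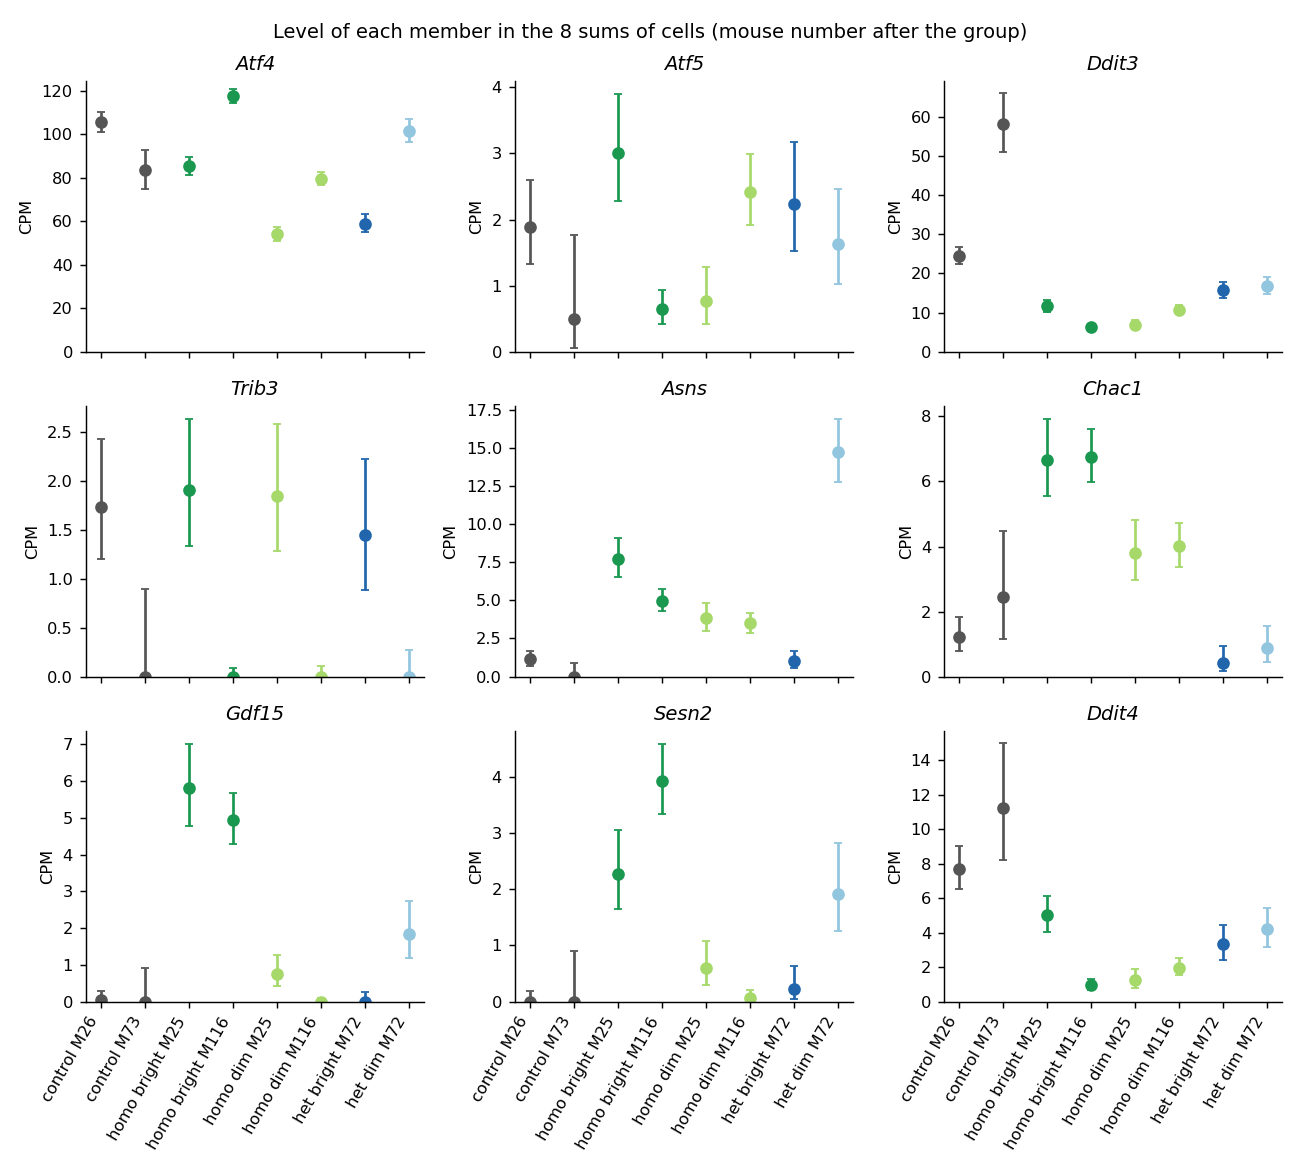
Level in CPM (vertical axes, linear, each gene on its own scale) of the 9 genes with a count in the 8 sums of cells, with the mouse number after the group; bars are exact 95% Poisson intervals of the summed counts and cover counting error only. Ddit3 and Ddit4 are highest in the 2 control mice, Gdf15 and Sesn2 are highest in the homozygous bright sums, and Trib3 is at 0 in 4 of 8 sums.

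Ddit3 (ENSMUSG00000025408, chr10:127290774-127296288, plus strand) encodes CHOP, the factor linked to cell death when stress persists. It was lower in every transgenic sum than in both controls. Control mice M26 and M73 had 24.5 and 58.3 CPM of Ddit3. Bright CMs of mouse M25 and of mouse M116 had 11.6 and 6.25 CPM, and their dim CMs 6.85 and 10.7 CPM. The heterozygous mouse lay in between, with 15.7 CPM in bright and 16.8 CPM in dim CMs. Against control the log2 fold change of Ddit3 was -2.56 ± 0.77 for bright CMs (edgeR, unadjusted p = 0.0155, adjusted p = 0.663) and -2.56 ± 0.73 for dim CMs (edgeR, unadjusted p = 0.0103, adjusted p = 0.735). Both comparisons used the same control mice, and neither passed after adjustment. The sign held in all 14 alternative settings of each comparison, while the estimate ranged from -3.66 to -1.26 in bright and from -3.09 to -1.705 in dim CMs. Without control mouse M26 Ddit3 passed in dim CMs (edgeR, adjusted p = 0.0390). That fit takes the spread of the 1 control mouse left from the homozygous mice, and 827 of the 14036 genes it tested passed, against 0 with both controls.

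One control cell of mouse M73 held 66.1% of the Ddit3 counts of that mouse. Without the richest cell of each sum, Ddit3 was at 19.3 and 23.2 CPM in the control mice and between 4.91 and 13.3 CPM in the 6 transgenic sums, so the order of the groups stayed. The share of cells with a Ddit3 count was also higher in both control mice than in the 4 homozygous sums. After thinning each cell to 100000 counts, which left 20 shallower cells out, it was 65.0% and 50% in the control mice, 23.8% and 26.9% in bright CMs, 22.2% and 37.5% in dim CMs, and 47.8% and 41.7% in the bright and dim CMs of the heterozygous mouse. Before thinning, among the same cells, these shares were 75% in both controls, 52.4% and 32.7% in bright CMs, 33.3% and 41.7% in dim CMs, and 60.9% and 54.2% in the heterozygous mouse. In the GENCODE M21 annotation of GRCm38, the Ddit3 gene overlaps a second Ddit3 entry on its strand and Mars and Gm4189 on the opposite strand. Whether the authors counted by strand is not given in the sources used here, and so reads could not be assigned between them with certainty.

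**Figure D2:**
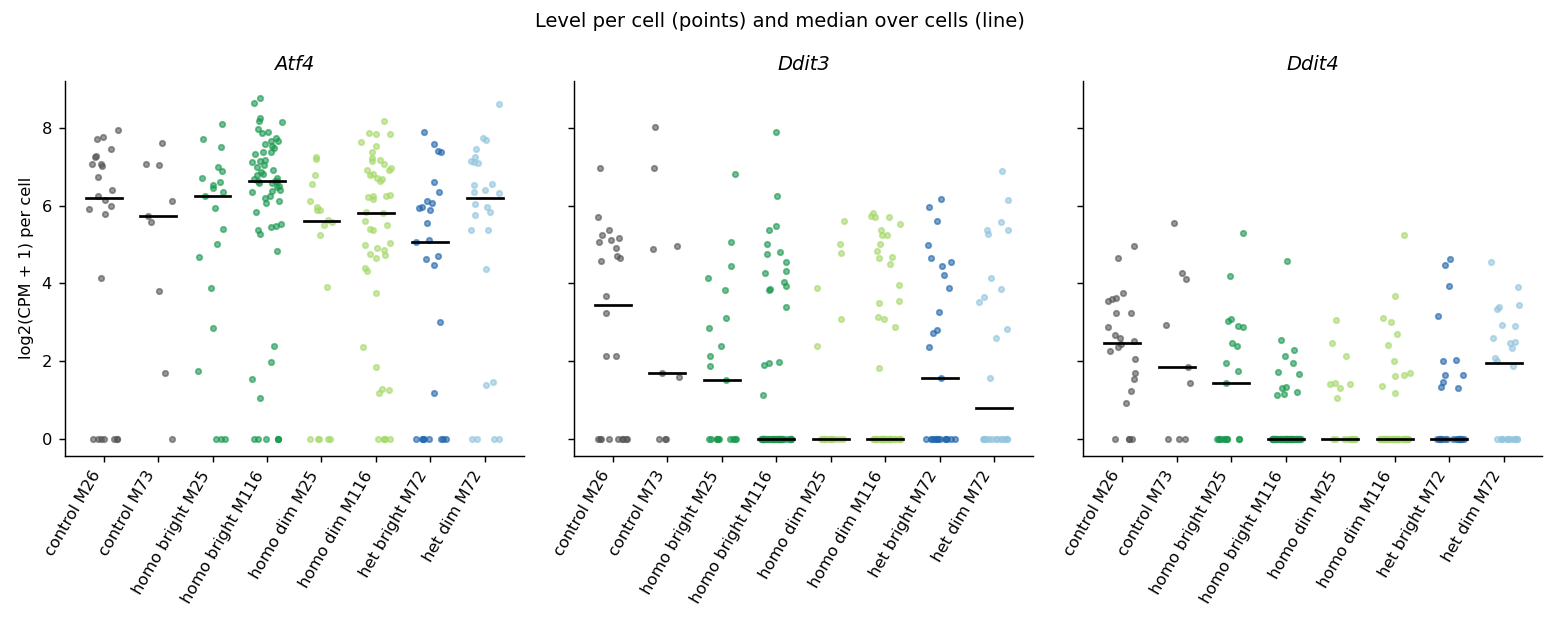
Level per cell of Atf4, Ddit3 and Ddit4 as log2(CPM + 1) on the vertical axis, by mouse and brightness class; each point is a cell and each line the median over cells. The median of Ddit3 lies at 0 in the bright cells of mouse M116 and the dim cells of both homozygous mice and above 0 in both control mice, while Atf4 medians lie above 0 everywhere.

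Atf5 (ENSMUSG00000038539, chr7:44812256-44816658, minus strand), a factor related to ATF4 that responds to mitochondrial stress, had a count in 35 cells and showed no order by group. Its values were 1.89 and 0.488 CPM in control mice M26 and M73, 3.01 and 0.642 CPM in the bright and 0.762 and 2.41 CPM in the dim CMs of mice M25 and M116. In the heterozygous mouse Atf5 was at 2.24 CPM in bright and 1.62 CPM in dim CMs. Bright CMs against control gave a log2 fold change of 0.33 ± 1.59 for Atf5 (edgeR, adjusted p = 0.989). Its locus overlaps Nup62 and Il4i1 on the opposite strand.

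Trib3 (ENSMUSG00000032715, chr2:152337422-152344032, minus strand), the pseudokinase by which the response limits itself, was found in 4 cells only, with between 20 and 36 counts in each. They belonged to 1 control cell of mouse M26, 1 bright and 1 dim cell of mouse M25 and 1 bright cell of mouse M72, and all 4 were mixed wells. Without mixed wells the Trib3 level was 0 in all 8 sums. In these CMs Trib3 gave no comparison between groups beyond those 4 wells.

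Asns (ENSMUSG00000029752, chr6:7675169-7693254, minus strand), which makes asparagine and is a classical ATF4 target, was higher in each homozygous sum than in both control mice, but rested on few cells. Controls M26 and M73 had 1.12 and 0 CPM, bright CMs of mice M25 and M116 had 7.72 and 4.99 CPM, and dim CMs 3.81 and 3.48 CPM. The highest Asns value, 14.7 CPM, was found in the dim CMs of the heterozygous mouse, and its bright CMs had 1.01 CPM. A single cell held 88.4% and 89.1% of the Asns counts in the 2 bright sums, and both cells were mixed wells. Without mixed wells the bright sums were at 1.04 and 0.611 CPM, within the range of the control mice. The dim sum of mouse M25 had 97.1% of its Asns counts in 1 mixed well and was at 0.132 CPM without mixed wells, whereas that of mouse M116 was then at 4.27 CPM. Fits gave log2 fold changes against control of 3.10 ± 1.79 in bright (edgeR, adjusted p = 0.876) and 2.32 ± 1.88 in dim CMs (edgeR, adjusted p = 0.991).

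Chac1 (ENSMUSG00000027313, chr2:119351229-119354381, plus strand) breaks down glutathione and is another target of the pathway. Its level was 1.23 and 2.44 CPM in control mice M26 and M73, 6.66 and 6.76 CPM in bright and 3.81 and 4.01 CPM in dim CMs of mice M25 and M116, so that all 4 homozygous values lay above the controls. Those of the heterozygous mouse lay below, at 0.433 CPM in bright and 0.886 CPM in dim CMs. A single cell held 90.6% of the Chac1 counts in the dim CMs of mouse M116, and 1 cell held 95.8% and 100% of those in the control mice. Without the richest cell of each sum Chac1 was at 0.0537 and 0 CPM in control mice M26 and M73, at 4.62 and 3.84 CPM in bright and at 2.06 and 0.388 CPM in dim CMs, so that the order of the homozygous and control values stayed. Leaving out mixed wells put the bright values at 6.13 and 7.61 CPM. In mouse M25, 10 of 21 bright cells had a Chac1 count, in mouse M116 only 5 of 59. Between the plates of mouse M116 the order of the classes turned: bright CMs had 13.2 CPM on GL9989-2 and 0.0505 CPM on GL9989-3, and dim CMs 0.588 and 8.99 CPM. For Chac1 the log2 fold change against control was 1.54 ± 1.32 in bright (edgeR, adjusted p = 0.935) and 0.79 ± 1.46 in dim CMs (edgeR, adjusted p = 0.999).

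Gdf15 (ENSMUSG00000038508, chr8:70629393-70632456, minus strand), the stress hormone that heart muscle releases, was higher in the bright CMs of both homozygous mice than in all other sums, with counts in 10 cells. In control mice it had 1 count in all, which is 0.0511 CPM in mouse M26 and 0 in mouse M73. In bright CMs Gdf15 was at 5.81 CPM (mouse M25) and 4.94 CPM (mouse M116), and in dim CMs at 0.762 and 0 CPM. The heterozygous mouse had 0 CPM in bright and 1.85 CPM in dim CMs. In every other sum Gdf15 was below both bright values. Over the pooled counts the bright level was 124 times that of control, with an exact 95% interval from 22.0 to 4895 times that covers counting error only. The log2 fold change was 6.71 ± 1.94 (edgeR, unadjusted p = 0.0130, adjusted p = 0.663) and did not pass the threshold.

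The Gdf15 counts were confined to few wells. All 110 counts of bright mouse M25 came from 1 mixed well, and without it the value was 0 CPM. In mouse M116 the 200 counts came from 5 bright cells, all on plate GL9989-3, where the level was 10.1 CPM in 30 cells. It was 0 in the 29 bright cells on plate GL9989-2. Without mixed wells bright mouse M116 kept 4.86 CPM. At least 10 counts of Gdf15 were found in 7.50% of homozygous bright cells (6 of 80, exact 95% binomial interval 2.80% to 15.6%) and in 0 of 33 control cells, which allows a share of up to 9.09% by a limit of 3 cells, or 10.6% by the exact 95% binomial interval. The 6 wells were 1 of mouse M25 and 5 of mouse M116. These intervals overlap and cover the counting of cells, not the spread between the 2 mice of a group.

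Fgf21 (ENSMUSG00000030827, chr7:45613886-45615490, minus strand), the other hormone of the response, had 0 counts in every cell, which allows a level of up to 0.0184 CPM over all sums and a share of cells of up to 1.28%.

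Sesn2 (ENSMUSG00000028893, chr4:132492032-132510501, minus strand), a sensor that restrains the growth kinase complex mTORC1 and supports redox defence, had 0 counts in both control mice. Bright CMs of mice M25 and M116 had 2.27 and 3.93 CPM of Sesn2, dim CMs 0.598 and 0.0581 CPM, and the heterozygous mouse 0.216 CPM in bright and 1.92 CPM in dim CMs. Each of these values is above the 0 of both controls, as was so for 11.9% of the 12203 genes tested. However, 11 of the 13 dim counts came from 1 mixed well of mouse M25, and without mixed wells the dim sums were at 0 and 0.0712 CPM. The dim value of mouse M116 and the bright value of mouse M72 rest on 2 and 3 counts. Set against a floor of 3 counts over both control mice together, Sesn2 was at least 26.8-fold higher in bright CMs, a bound that covers counting error only. A single cell held 83.7% and 57.2% of the Sesn2 counts in the bright sums of mice M25 and M116. Without the richest cell these sums were at 0.386 and 1.71 CPM. For bright CMs edgeR gave an unadjusted p of 0.0183 and an adjusted p of 0.663. Without mixed wells the bright sums stood at 2.21 and 4.39 CPM. Only 13 cells had a count, and the 5 richest held 86.1% of all Sesn2 counts.

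Ddit4 (ENSMUSG00000020108, chr10:59949669-59951834, minus strand), also known as REDD1, likewise restrains mTORC1 and responds to low oxygen and glucocorticoids as well as to ATF4. Its direction was the opposite of that of Sesn2. Control mice M26 and M73 had 7.71 and 11.2 CPM of Ddit4, bright CMs 5.02 and 0.963 CPM, dim CMs 1.25 and 1.97 CPM, and the heterozygous mouse 3.32 CPM in bright and 4.21 CPM in dim CMs. Like Ddit3, Ddit4 was lower in all 6 transgenic sums than in both controls, a pattern shared by 2.88% of the 12203 genes tested. For Ddit4 the log2 fold change against control was -1.97 ± 1.32 in bright CMs (edgeR, adjusted p = 0.905) and -2.86 ± 1.25 in dim CMs (edgeR, adjusted p = 0.841). Under the alternatives tried it ranged from -3.87 to -0.79 and from -3.19 to -1.90. A single cell held 50% of the Ddit4 counts of control mouse M73. Without the richest cell of each sum Ddit4 was at 6.72 and 6.39 CPM in the control mice and between 0.553 and 3.59 CPM in the 6 transgenic sums. After thinning, 40.0% and 75% of control cells had a Ddit4 count, against 23.8% and 3.85% of bright and 11.1% and 8.33% of dim cells of mice M25 and M116. Among the same cells before thinning these shares were 100% and 75% in controls, 52.4% and 23.1% in bright and 44.4% and 25% in dim cells.

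As a group, the 10 genes did not move in 1 direction against control. In bright CMs 9 genes could be tested and 0 passed (edgeR; 0.0164% of all 12203 genes tested passed, which were the transgene's hBAG and BAG-eGFP rows). At an unadjusted p under 0.05 there were 3 of 9, namely Gdf15, Sesn2 and Ddit3, beside 6.55% of all genes, and DESeq2 also called 0 of 9. Gdf15 and Sesn2 passed the filter on low counts only through the bright sums in which they are high, and so nothing is read from this count against that share. Both bright values lay above both controls for Asns, Chac1, Gdf15 and Sesn2 (24.3% of all genes) and below for Ddit3 and Ddit4 (14.8% of all genes). Since Gdf15 and Sesn2 are among the former, nothing is read from that count against its share either. The median log2 fold change was 0.33 for the 9 genes and 0.11 for all genes. Leaving out mixed wells, which left 7 genes tested, gave 0.02 beside 0.12 for all genes. In dim CMs 0 of the 7 genes tested passed (edgeR; 0% of 12195 genes), with Gdf15, Sesn2 and Fgf21 too low to test. Only Ddit3 had an unadjusted p under 0.05 there, beside 6.22% of all genes. The median was -0.20 beside 0.10 for all genes.

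**Figure D3:**
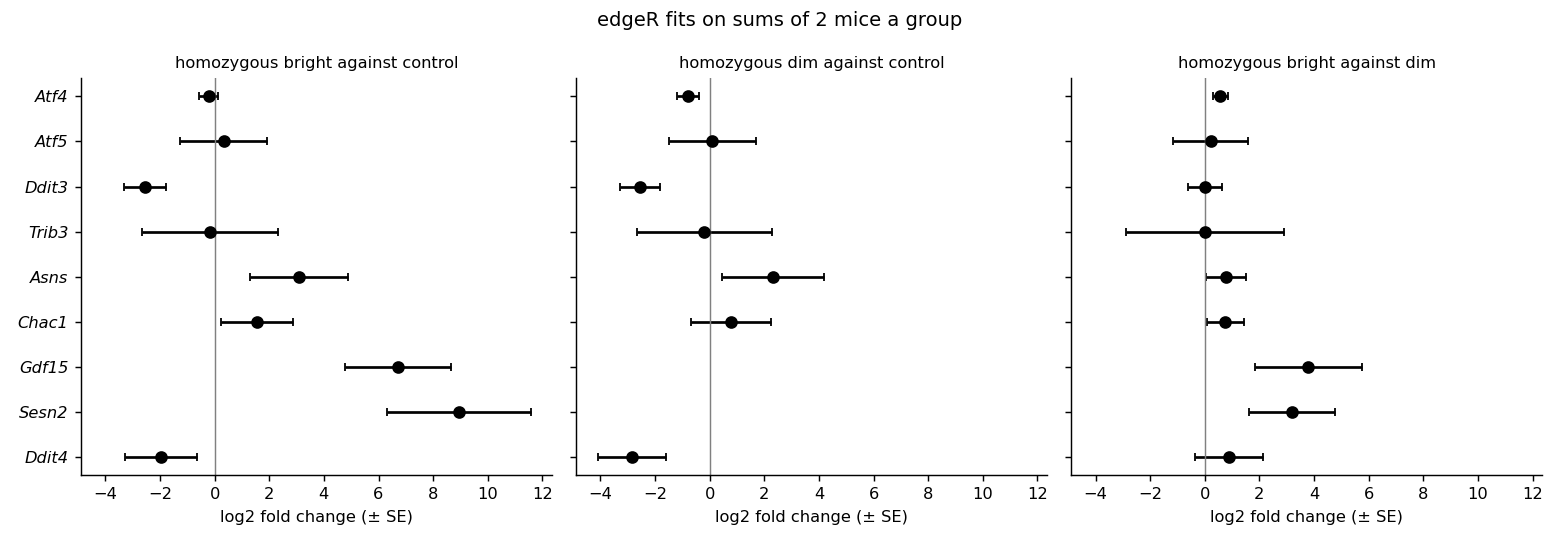
Log2 fold changes (horizontal axes) of the genes tested, with their standard errors as bars, from edgeR fits on sums of 2 mice a group; the title of each panel names the groups compared. Ddit3 and Ddit4 lie below 0 in both comparisons with control, and Gdf15 and Sesn2 lie farthest above 0 in bright against control.

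Bright against dim CMs of the same mice asked which genes went with a higher transgene level. The 9 genes tested had a median log2 fold change of 0.75, beside -0.01 for all 13439 genes, and all 9 estimates were above 0, as were 49.5% of those of all genes. Gdf15 and Sesn2 passed the filter on low counts through the bright sums in which they are high. Nothing is therefore read from this median or count against the values of all genes. The estimate of Trib3 was 0.02 and rested on 1 mixed well of each class. The direction turned for Atf5 and Ddit3 when the classes were paired by mouse, to -0.0050 and -0.044, and for Asns to -1.36 without mixed wells. None passed (edgeR, 0 of 9, with 0% of all genes called, and 0 of 9 with DESeq2), and 0 had an unadjusted p under 0.05, beside 4.12% of all genes. This fit did not pair the classes by mouse. At that unadjusted level there was 1 gene each with the classes paired, with DESeq2, without a filter and without mixed wells. With equal weight for each cell there were 2. Both bright values lay above both dim values for Atf4, Asns, Chac1, Gdf15 and Sesn2, as they did for 15.1% of all genes. Since Gdf15 and Sesn2 are among them, nothing is read from this count against that share. Endothelial markers (4 genes), which the rule for mixed wells does not use, summed to 34.0 and 52.1 CPM in bright and 113 and 112 CPM in dim CMs, and to 44.3 and 94.96 CPM in control mice. All 4 were lower in both bright than in both dim sums, as were 16% of all genes, and the median log2 fold change of these markers was -1.66. In the heterozygous mouse they summed to 68.6 CPM in bright and 124 CPM in dim CMs. Their part in these results was not tested. Gdf15 had the highest estimate, 3.79 ± 1.97 (edgeR, adjusted p = 0.999), followed by Sesn2 with 3.18 ± 1.58 (edgeR, adjusted p = 0.999). For Ddit3 the estimate was 0.01 ± 0.63, and mice M25 and M116 went in opposite directions.

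Mouse M72 carried the same genes in the opposite order of its labels. Each of Atf4, Asns, Chac1, Gdf15 and Sesn2, which were higher in bright than in dim CMs of both homozygous mice, was higher in dim than in bright CMs of the heterozygous mouse, and so was hBAG. Atf4 was at 59.0 CPM in heterozygous bright and 102 CPM in heterozygous dim CMs, with exact Poisson intervals of 55.0 to 63.1 and 96.4 to 107 CPM. In all 3 transgenic mice these 5 genes were thus higher in the class with the higher hBAG level. The same pattern was found for 15.6% of the 13439 genes tested, and the opposite one for 10.6%. Gdf15 and Sesn2 passed the filter on low counts through the homozygous bright sums, so nothing is read from the count of 5 against these shares. Without mixed wells the pattern remained for Atf4 and Sesn2 and was lost for Asns, Chac1 and Gdf15. It was not tested, since this order of the classes rests on the measured hBAG level and not on the labels.

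**Figure D4:**
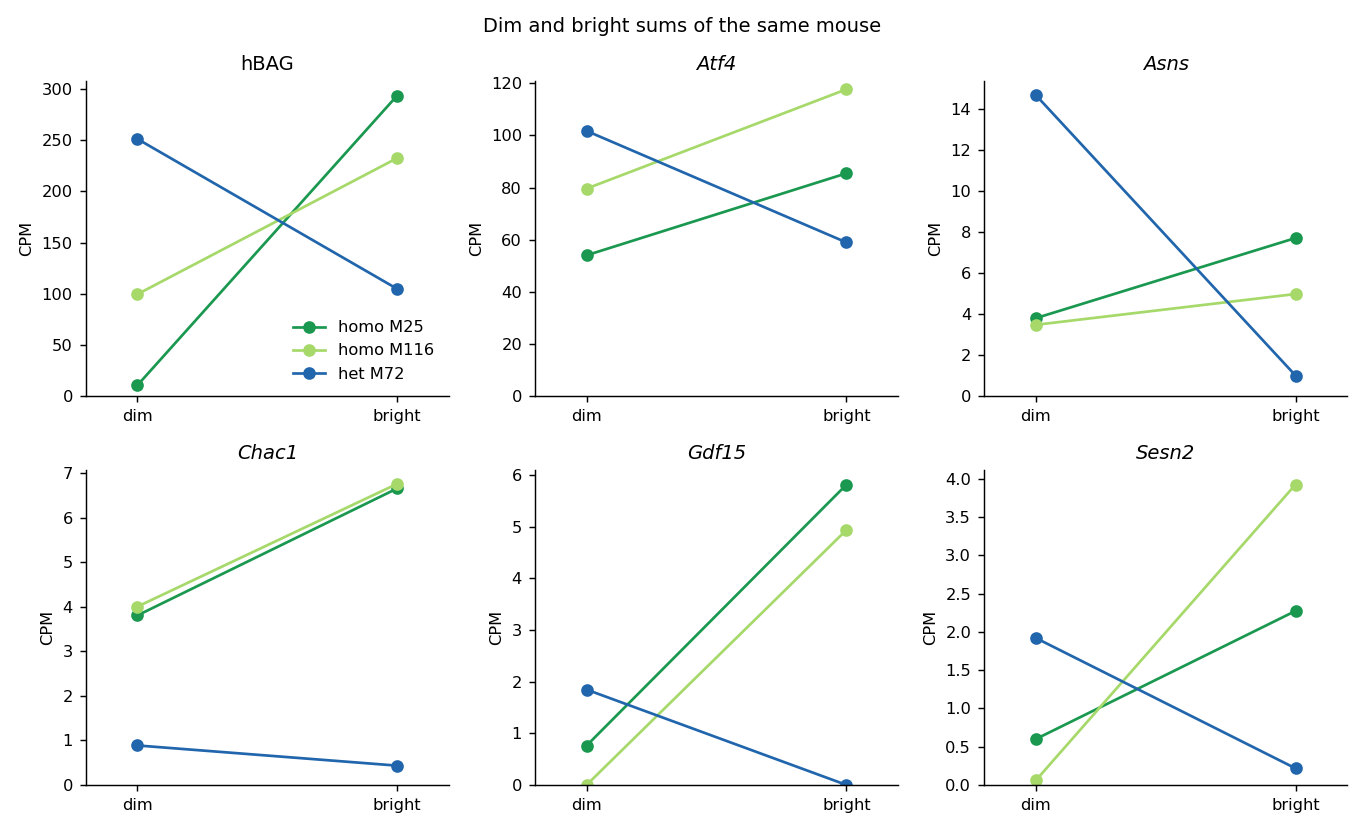
Level in CPM (vertical axes, linear from 0) in the dim and bright sums of the same mouse, joined by a line for mice M25 and M116 (homozygous) and M72 (heterozygous), for the transgene and 5 stress response genes. Lines of the homozygous mice climb from dim to bright and that of the heterozygous mouse drops in each panel, hBAG included.

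Within single cells the target genes seldom appeared together. Of Asns, Chac1, Gdf15, Sesn2 and Trib3, none reached 10 counts in 200 wells, 28 wells had 1 of them, 4 wells had 2, 1 well had 3 and 1 well had 4. Wells with at least 1 made up 3 of 24 and 1 of 9 in control mice M26 and M73, 5 of 21 and 11 of 59 among bright CMs and 6 of 18 and 3 of 50 among dim CMs of mice M25 and M116. In the heterozygous mouse they were 2 of 27 bright and 3 of 26 dim cells. All 6 wells with at least 2 came from transgenic mice, and 0 of 33 control cells had 2 or more, which allows up to 9.09%. Of these 6 wells, 4 were mixed wells.

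The well with 4 of these genes was a bright cell of mouse M25 with 946217 counts and the highest number of detected genes of all cells, 10717. It held 259 counts of Atf4, 129 of Asns, 110 of Gdf15, 36 of Trib3 and 23 of Chac1, and 598 of hBAG. It was also a mixed well, with fibroblast markers at 1118 CPM. A bright cell of mouse M116 that was not mixed held 161 counts of Atf4, 37 of Sesn2 and 16 of Gdf15, and none of Asns or Chac1.

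All 8 wells with at least 10 Gdf15 counts also had at least 10 Atf4 counts, as did 173 of all cells (73.9%), and 7 of the 8 had at least 10 hBAG counts, as did 144 of all cells (61.5%). Of these wells 6 came from bright, 1 from dim and 1 from heterozygous dim cells. In 4 of the 8 there were also at least 10 counts of Mthfd2, an enzyme of mitochondrial folate metabolism, and in 3 as many of Psat1, an enzyme of serine synthesis. Among all cells the numbers were 16 for Mthfd2 and 13 for Psat1. Phgdh and Pycr1 each reached 10 counts in 2 of the 8 wells and in 3 of all cells, and Aldh18a1, which like Pycr1 serves proline synthesis, in 1 of the 8 and in 26 of all cells. The mixed bright well of mouse M25 described above was 1 of the 8, and it reached 10 counts of each of these enzymes.

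**Figure D5:**
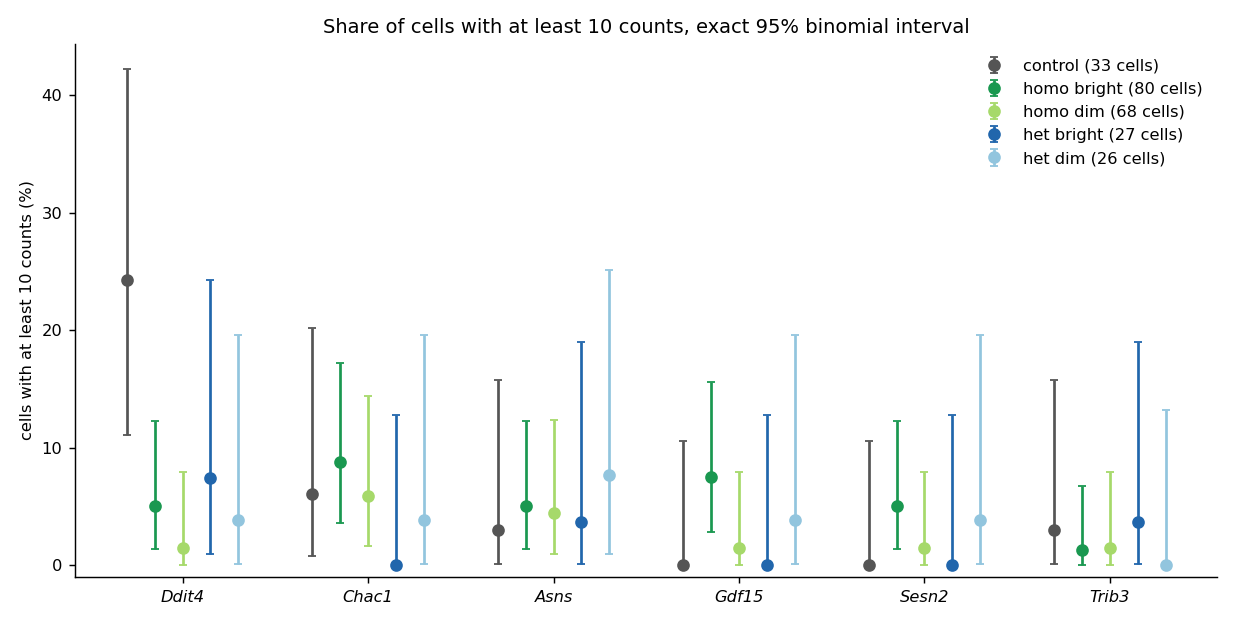
Share of cells with at least 10 counts (vertical axis, percent) of 6 genes, by group; points are shares of all cells of a group and bars exact 95% binomial intervals, which cover counting error only. For Gdf15 and Sesn2 the control point is at 0 with an interval that overlaps the bright one, and for Ddit4 the control share of 24.2% is the highest.

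Across cells, after centring log2(CPM + 1) within each mouse and brightness class, Atf4, Ddit3 and Ddit4 were only weakly related. Spearman's rho over all cells was 0.158 for Atf4 with Ddit3, 0.0479 for Atf4 with Ddit4 and 0.182 for Ddit3 with Ddit4. With the total count of the cell it was 0.263 for Atf4, 0.177 for Ddit3 and 0.260 for Ddit4. None of the 7685 genes found in at least 25% of cells reached a rho of 0.4 with any of them. Cells share a library and depth, and so these values describe these cells only.

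Upstream of Atf4, the 4 eIF2 kinase genes had estimates above 0 in bright CMs against control, where the median over all genes was 0.11. Eif2ak3, at 0.306 and 0 CPM in control mice M26 and M73, passed the filter on low counts through the bright sums. Nothing is therefore read from the count of kinases. The log2 fold change was 0.72 ± 0.80 for Eif2ak1 (HRI), 2.82 ± 1.71 for Eif2ak2 (PKR), 3.99 ± 1.85 for Eif2ak3 (PERK) and 1.30 ± 1.25 for Eif2ak4 (GCN2), and none passed in edgeR (adjusted p from 0.836 for Eif2ak3 to 0.950 for Eif2ak1). Without mixed wells Eif2ak4 changed sign, to -1.06. Eif2ak2, the kinase known for sensing double-stranded RNA, stood at 2.96 and 0 CPM in control mice M26 and M73, 15.3 and 11.1 CPM in bright and 2.99 and 5.25 CPM in dim CMs of mice M25 and M116. In the heterozygous mouse it was at 5.05 CPM in bright and 17.3 CPM in dim CMs, so that its order was that of hBAG within each of the 3 mice, as for 15.6% of all genes. The other 3 kinases did not show this order: Eif2ak1 and Eif2ak3 were higher in bright than in dim CMs of the heterozygous mouse (28.6 against 11.4 CPM and 3.03 against 1.70 CPM), and Eif2ak4 was lower in bright than in dim CMs of mouse M116 (3.85 against 11.3 CPM). Ppp1r15a (GADD34), which reverses the eIF2 mark, had a log2 fold change of 0.23 ± 0.80. In the list of 14 genes for eIF2 kinases, phosphatases and exchange factor, 0 of 14 passed, and the median was 0.49.

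Other known ATF4 targets were divided. Of a list of 22, 17 could be tested in bright CMs against control, 10 with estimates above and 7 below 0, and 0 passed in edgeR. Their median log2 fold change was 0.06, beside 0.11 for all genes. An unadjusted p under 0.05 was found for 5, all higher: Atf3, Psat1, Eif4ebp1, Mthfd2 and Phgdh. For higher genes at that level the share of all genes was 4.7%. Psat1, Mthfd2 and Phgdh, at or near 0 in control CMs, passed the filter on low counts through the bright sums in which they are high, and so nothing is read from the count of 5 against that share. Atf3, a transcription factor that also belongs to the early response to cell stress of many kinds, was at 8.83 and 10.3 CPM in control mice M26 and M73, 37.4 and 246 CPM in bright and 31.7 and 316 CPM in dim CMs of the homozygous mice, and 26.5 and 59.0 CPM in the bright and dim CMs of the heterozygous mouse. Its log2 fold change was 3.54 ± 0.90 in bright CMs (edgeR, adjusted p = 0.663), and it passed with DESeq2 (adjusted p = 0.00936), without a filter and without mouse M25. It was 1.68 without mouse M116 (edgeR, unadjusted p = 0.266) and 1.88 within library set GL-9122b. Dim CMs against control gave a log2 fold change of 3.86 ± 1.01 for Atf3 (edgeR, adjusted p = 0.735), and 1.46 without mouse M116. There it passed with the library set block (edgeR, adjusted p = 0.0142), with DESeq2 (adjusted p = 0.00355), without a filter and without mouse M25.

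Psat1, Mthfd2 and Phgdh, the serine and folate enzymes among these 5 genes, were at or near 0 in control CMs. Others were not, such as Shmt2, named after its values were seen, with 30.8 and 15.1 CPM in control mice M26 and M73. Psat1 was at 0.0511 and 0 CPM in control mice, 6.50 and 8.10 CPM in bright and 4.08 and 2.21 CPM in dim CMs of the homozygous mice, and 0 and 1.03 CPM in heterozygous bright and dim CMs. Mthfd2 was at 0.460 and 0 CPM in controls, 10.8 and 13.4 CPM in bright, 1.90 and 4.56 CPM in dim and 0.0722 and 9.60 CPM in heterozygous bright and dim CMs. Phgdh, the first enzyme of serine synthesis, had counts in bright CMs of mice M25 and M116 alone, at 0.846 and 3.51 CPM. In mouse M25 the mixed well with 4 of the stress response genes, described above, held all 16 Phgdh counts of the bright sum. That well also held 149 counts of Mthfd2 and 84 of Psat1, most of those of that sum. At least 10 counts of Psat1 were present in 8 bright, 4 dim, 1 heterozygous dim and 0 of 33 control cells. Without mixed wells the log2 fold change of Psat1 stayed at 6.30 and that of Mthfd2 at 4.42 (edgeR, adjusted p = 0.674 and 0.887), while Phgdh was too low to test there. The joint count of these enzymes with Gdf15 was chosen after their values were seen.

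Neighbouring programmes were compared with the same fit. In bright CMs against control 0 of 12 aminoacyl tRNA synthetase genes passed, with a median of 0.39. Mars alone had an unadjusted p under 0.05, at a log2 fold change of 1.90 ± 0.64 (edgeR, adjusted p = 0.663), opposite in direction to Ddit3, whose locus it overlaps. Of 14 genes of the unfolded protein response that depends on ATF6 and XBP1, 0 passed and the median was 0.70. Dnajc3, Sdf2l1 and Calr had unadjusted p below 0.05 with estimates above 0, of 1.57, 4.95 and 1.12, and Atf6 with -0.90. Without mixed wells the first 3 stood at 1.03, 1.85 and 0.60. Immediate-early genes, which many stimuli switch on within a short time, had a median of 1.27 over 9 genes, again with 0 passing, and summed to 359 and 352 CPM in control mice, 999 and 966 CPM in bright and 448 and 1075 CPM in dim CMs of mice M25 and M116. Leaving out mixed wells put the bright sums of these genes at 608 and 952 CPM, beside 335 and 352 CPM in control mice. Btg2 alone had an unadjusted p under 0.05, with a log2 fold change of 2.02 ± 0.50 (edgeR, adjusted p = 0.663). It passed with DESeq2 (adjusted p = 0.0341) and without a filter (edgeR, adjusted p = 0.00235), and its estimate was 1.08 within library set GL-9122b. All 9 cardiomyocyte markers had estimates below 0, with a median of -0.70 and 0 passing, and all 5 fibroblast markers had estimates above 0.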

How the data were processed

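SMART-seq2 libraries of single CMs were sequenced as 2 × 75 bases on an Illumina HiSeq. The authors used STAR for mapping, against a mouse reference extended by human BAG3 and eGFP, and deposited raw read counts per gene (STAR GeneCounts). The genome build, annotation and strand setting are not given in the sources used here; gene positions and lengths are from GENCODE M21 (GRCm38). All cells were used. Counts were summed per mouse and brightness class. Groups of 2 mice were compared in edgeR 4.0.16 (filterByExpr, TMM, quasi-likelihood test, Benjamini-Hochberg over all genes tested, threshold 0.05) with R 4.3.3, after tests on simulated data. The simulated counts had a spread set in advance and not that of these sums, so they do not measure how the fit performs here. Alternatives used DESeq2 1.42.0 and limma 3.58.1. Intervals cover the counting error of reads or cells only. Reads carry no molecular identifiers, so copies of 1 molecule are not told apart, and intervals on counts can be too narrow. Doublets were not called. Mice M25 and M116 each gave bright and dim cells, so mouse pairs those sums (correlation of deviations over 13500 genes, r = 0.0732). All 10 genes are named; of other lists, genes past the threshold or up to 5 with the lowest unadjusted p under 0.05 in bright CMs against control, and the eIF2 kinases with Ppp1r15a. Genes and lists were chosen with earlier results of these data known.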

Additional observations from a re-analysis of the deposited data

Results flagged for a closer look

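In 5 genes the heterozygous mouse moved against both homozygous mice, with dim above bright CMs where mice M25 and M116 had bright above dim; the difference was not tested. Heterozygous dim exceeded heterozygous bright CMs by 42.7 CPM for Atf4, 13.7 CPM for Asns, 0.453 CPM for Chac1, 1.85 CPM for Gdf15 and 1.70 CPM for Sesn2. The transgene went the same way, with 251 CPM of hBAG in the dim and 105 CPM in the bright class. Whether the labels of the 2 classes of this mouse are as intended was not tested.

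The heterozygous cells, which entered no test, also held 3 of these genes above the counting intervals of both control mice, which do not cover the spread between mice, all in dim CMs: Asns at 14.7 CPM, Gdf15 at 1.85 CPM and Sesn2 at 1.92 CPM. The richest cell held 75.9% of the Asns, 88.0% of the Gdf15 and 61.5% of the Sesn2 counts. Without it Asns was at 3.73 CPM, while Gdf15 at 0.234 CPM and Sesn2 at 0.764 CPM were below 0.900 CPM, the upper limit for both genes in control mouse M73.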

How the results depend on the processing

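No count of genes past the threshold changed under the alternatives in bright against control or bright against dim CMs; in dim against control it ranged from 0 to 1 when each mouse was left out, the 1 being Ddit3 without control mouse M26, where 827 of all genes passed. Over all genes the calls were 2, 0 and 0 for bright against control, dim against control and bright against dim in the main fit, 92, 53 and 91 with DESeq2 and 163, 58 and 217 without a filter. The library set block gave 10 calls for bright and 12 for dim against control. With each mouse left out, the median of the genes ranged from -0.26 to 1.52 for bright against control, from -0.69 to 0.32 for dim against control and from 0.47 to 0.99 for bright against dim, the last 2 values coming from 1 mouse each, which allowed no test. For dim against control it was 0.14 without a filter, 0.14 with equal weight for each cell, -0.57 without mixed wells and -1.15 within library set GL-9122b. Blocking by mouse, which pairs bright with dim CMs, gave a median of 0.58 and 0 calls, and changed no other call. Scaling by library size moved the median of all genes from 0.11 to 0.41 in bright against control.

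Some single genes changed sign. In bright against control these were Atf4 (0.10 by library size, 0.28 with equal weight, 0.035 within GL9989, -0.42 to 0.0011 with a mouse left out), Atf5 (-0.056 within GL9989, -1.19 to 1.52 with a mouse left out) and Trib3 (0.029 by library size, 0.20 with equal weight, -7.45 to 7.37 with a mouse left out). In dim against control they were Atf5 (-0.31 without mixed wells, -1.38 within GL-9122b, -0.88 to 1.32 with a mouse left out) and Trib3 (0.14 with equal weight, -7.27 to 7.17 with a mouse left out). In bright against dim they were Atf5 (-0.010 without the well with 4 genes, -0.0050 paired, -1.83 to 1.87 with a mouse left out), Ddit3 (-0.044 paired, -0.81 to 0.73), Asns (-1.36 without mixed wells, -0.33 without that well) and Ddit4 (-1.02 to 1.93 with a mouse left out). The 2 settings that left out wells, and the values within a library set, were chosen after seeing the data. Among the 214 cells deep enough, thinning lowered the share with a count from 47.7% to 36.9% for Ddit3 and from 43.9% to 18.7% for Ddit4. With 2 mice a group and 9 cells in control mouse M73, counts near 0 limit the precision of Asns, Chac1, Gdf15, Sesn2 and Trib3. The cause of these changes was not tested.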
